A study of Mus musculus with 6 samples.

Results

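The genes described here are 32 genes of DNA damage signalling and break repair, taken by symbol from a list that runs from mismatch repair to the p53 pathway, and all 32 were found among the 23412 rows of the count table. RNA came from germinal centre B cells (positive for B220, FAS and GL7) sorted from mouse spleens 10 days after intraperitoneal immunization with sheep red blood cells. Control mice carried Cg1-cre(+/-), a Cre recombinase allele that acts in B cells of the germinal centre, and DAF-TM mice carried Cg1-cre(+/-) together with DAF-TM(fl/fl), a Cre-dependent cassette at the Rosa26 locus (R26). The cre allele was thus present in both groups, and neither strain nor age is given in the sources used here. Each group had 3 samples, but 2 of the DAF-TM columns, replicates 2 and 3, held the same count in each row. As their difference was below sampling noise they were counted as 1 sample, so 3 control libraries were compared with 2 DAF-TM libraries. Whether mice were pooled for a library is not stated, so p-values measure the spread between these libraries, which may be technical.

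Germinal centre B cells divide fast while their antibody genes undergo somatic hypermutation and class switching. Base excision and mismatch repair turn some of the lesions made in these genes into mutations and some into breaks of the DNA, and the breaks in switch regions are joined by non-homologous end joining during class switching. ATM and ATR are the kinases that signal breaks and stalled replication, BCL6 is known to hold down ATR, CHEK1 and p53 in these cells, and homologous recombination and the Fanconi anaemia pathway repair breaks and crosslinks met during replication.

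None of the 32 genes passed the test between the groups. In edgeR's quasi-likelihood test, with p-values adjusted by the Benjamini-Hochberg method over 18767 genes, 0 of the 32 passed the threshold of 0.05, and the adjusted p-values ran from 0.858 to 0.999. The share of all genes tested that passed was 0.41% (70 higher and 7 lower in DAF-TM cells). At an unadjusted p under 0.05 there was 1 of the 32, Rnf168, where the share of all genes tested was 5.74%. DESeq2 and limma-voom also called 0 of the 32. All 32 passed the filter on low counts, with 111 to 7164 counts per gene and library.

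Log2 fold changes of DAF-TM against control cells ran from -0.34 to 0.21, with 10 positive and 22 negative values. The 95% interval of the fold change lay within a 2-fold change in either direction for all 32 genes and within 1.5-fold for 27, the exceptions being Rnf168, Atm, Atr, Bard1 and Fanci. It lay within 1.2-fold for 0 of them, although its upper limit was below a 1.2-fold rise for 17 genes and its lower limit above a 1.2-fold fall for 5. These intervals rest mainly on a spread pooled over genes (1153 prior degrees of freedom at the median, beside 3 from the libraries).

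**Figure D1:**
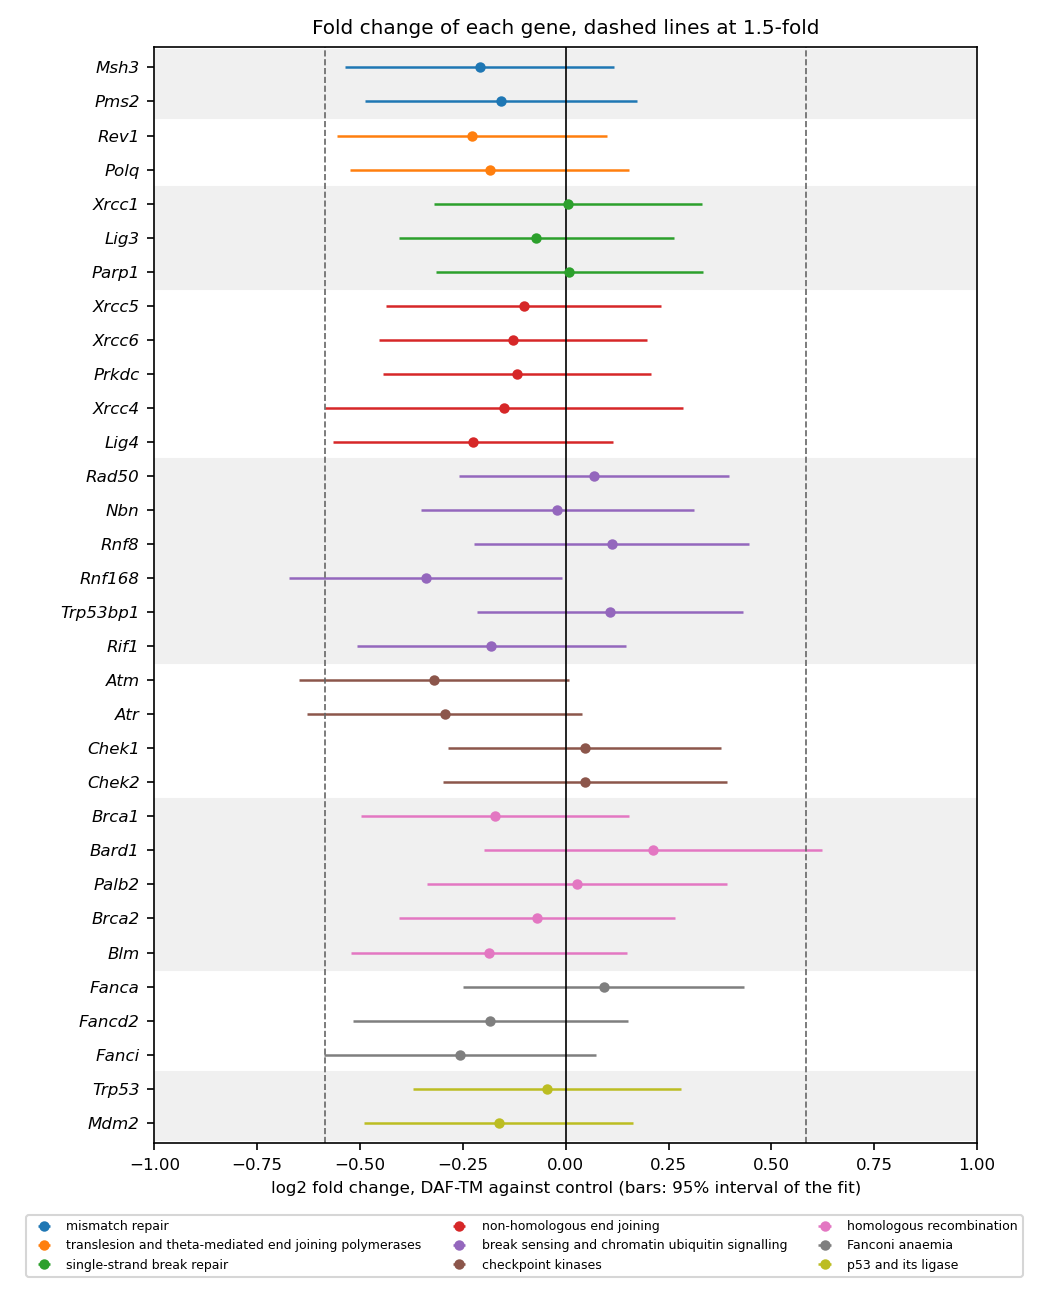
Log2 fold change (horizontal axis, DAF-TM against control, n = 2 and 3 libraries) of each of the 32 genes, in rows grouped and coloured by role, with bars for the 95% interval of the edgeR fit and dashed lines at 1.5-fold. The bars of 31 genes cross 0, and the bar of Rnf168 ends just below it, before any adjustment for the number of genes tested.

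The libraries differed in ways that touch these values. Cd55, the mouse gene of DAF, had 172 to 405 counts in the control libraries and 7911 and 8585 in the DAF-TM libraries. Total counts ran from 7257339 to 12783965. Xist and Y-linked genes marked control library 1 and DAF-TM library 2 as female and control libraries 2 and 3 as male, and DAF-TM library 1 held both (291 and 284 CPM). Whether DAF-TM library 1 was a pool of both sexes or a mixture of samples cannot be told apart, and it is 1 of only 2 DAF-TM libraries. Without it, the comparison rests on DAF-TM library 2 alone. Natural killer cell markers rose in 9 of 14 genes, with sums from 57.6 to 97.8 CPM in control cells against 200 (DAF-TM library 1) and 106 (DAF-TM library 2). Naive B cell markers rose in 4 of 10, macrophage markers in 4 of 14, T cell markers in 2 of 13, plasma cell markers in 1 of 7 and dendritic cell markers in 1 of 10, while 0 of 11 neutrophil and 0 of 5 erythroid markers passed. The naive B cell sums were 810 to 939 CPM in the controls and 1144 and 798 in DAF-TM cells. Those of macrophage markers were 766 to 857 and 951 and 725, and those of T cell markers 284 to 322 and 287 and 304. Sums follow the most abundant genes. Gene by gene, 11 of 13 T cell markers were higher in both DAF-TM libraries than in all controls, and 1 was lower. For macrophage markers 9 of 14 were higher and 0 lower, where 11.3% of all genes tested were higher. Median log2 differences from the control mean in DAF-TM libraries 1 and 2 were 0.72 and 0.83 for T cell markers. They were 0.70 and 0.61 for macrophage markers. The part of these marker genes in the values below was not tested.

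DAF-TM library 2 stood apart by expression level. Against the control mean its median log2 difference was 0.41 for genes under 5 normalised CPM (CPM, counts scaled to a common library size with TMM factors), 0.27 from 5 to 15, -0.09 from 15 to 50, -0.18 from 50 to 150 and -0.24 at 150 or more. DAF-TM library 1 stayed between -0.05 and 0.04 in the same classes. All 32 genes had a mean of at least 15 CPM, the range in which DAF-TM library 2 was low: 7 lay between 15 and 50, 20 between 50 and 150, and 5 above. Their medians in DAF-TM library 2 were -0.15, -0.24 and -0.29 in these classes, and in DAF-TM library 1 -0.01, -0.01 and 0.01.

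The same library therefore carried nearly all of the list's displacement. Over the 32 genes the median log2 fold change was -0.12, beside 0.03 for all genes tested and -0.09 for the 8132 genes at 15 CPM or more. Values were negative for 22 of the 32 and for 5802 of the 8132. In DAF-TM library 1 the median difference from the control mean was -0.00, with 16 of 32 genes below that mean. In DAF-TM library 2 it was -0.21, with 28 of 32 below. DAF-TM library 2 held the lowest value of the 5 libraries for 19 of the 32 genes (59.4%), and for 49.9% of all genes at 15 CPM or more. Without DAF-TM library 2 the list's median was -0.01, and without DAF-TM library 1 it was -0.23.

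**Figure D2:**
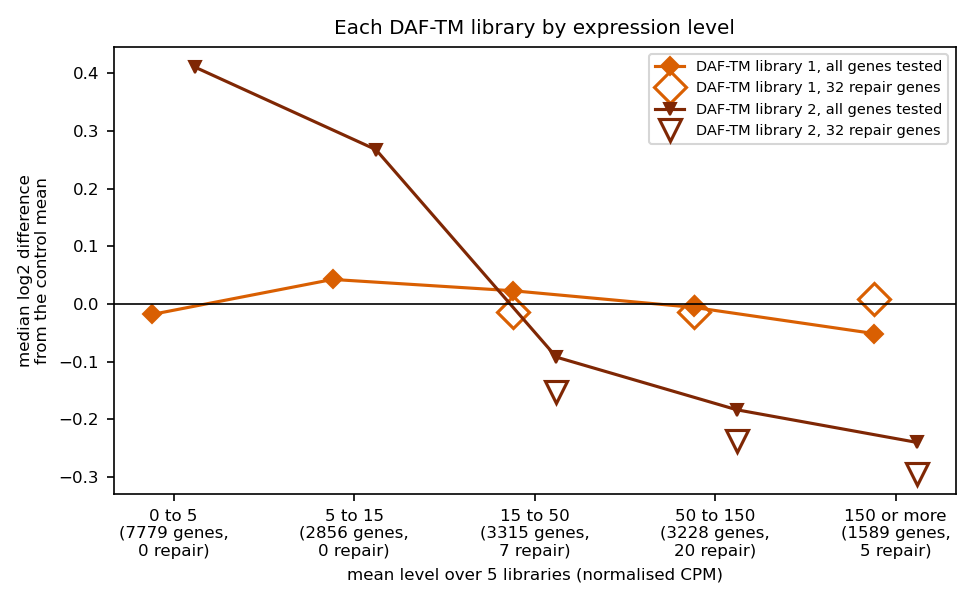
Median log2 difference of each DAF-TM library from the control mean (vertical axis) for genes in 5 classes of mean level (horizontal axis, normalised CPM), with filled symbols and lines for all genes tested and open symbols for the 32 repair genes. The repair genes follow the course of the other genes of their level: near 0 in DAF-TM library 1 and between -0.15 and -0.29 in DAF-TM library 2.

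Levels without overlap between the groups were found for 6 of the 32 genes, 1 higher and 5 lower in DAF-TM cells. Bard1 was the higher one, and Lig4, Rnf168, Atm, Blm and Fanci were the lower ones. Over all genes tested 20.3% did not overlap, 11.3% higher and 9.02% lower. Among genes at 15 CPM or more the shares were 3.68% higher and 17.2% lower, which is close to the 5 of 32 seen here. With 3 libraries against 2, an exact permutation test of a single value, made two-sided by doubling the smaller tail, cannot give a p below 0.2.

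**Figure D3:**
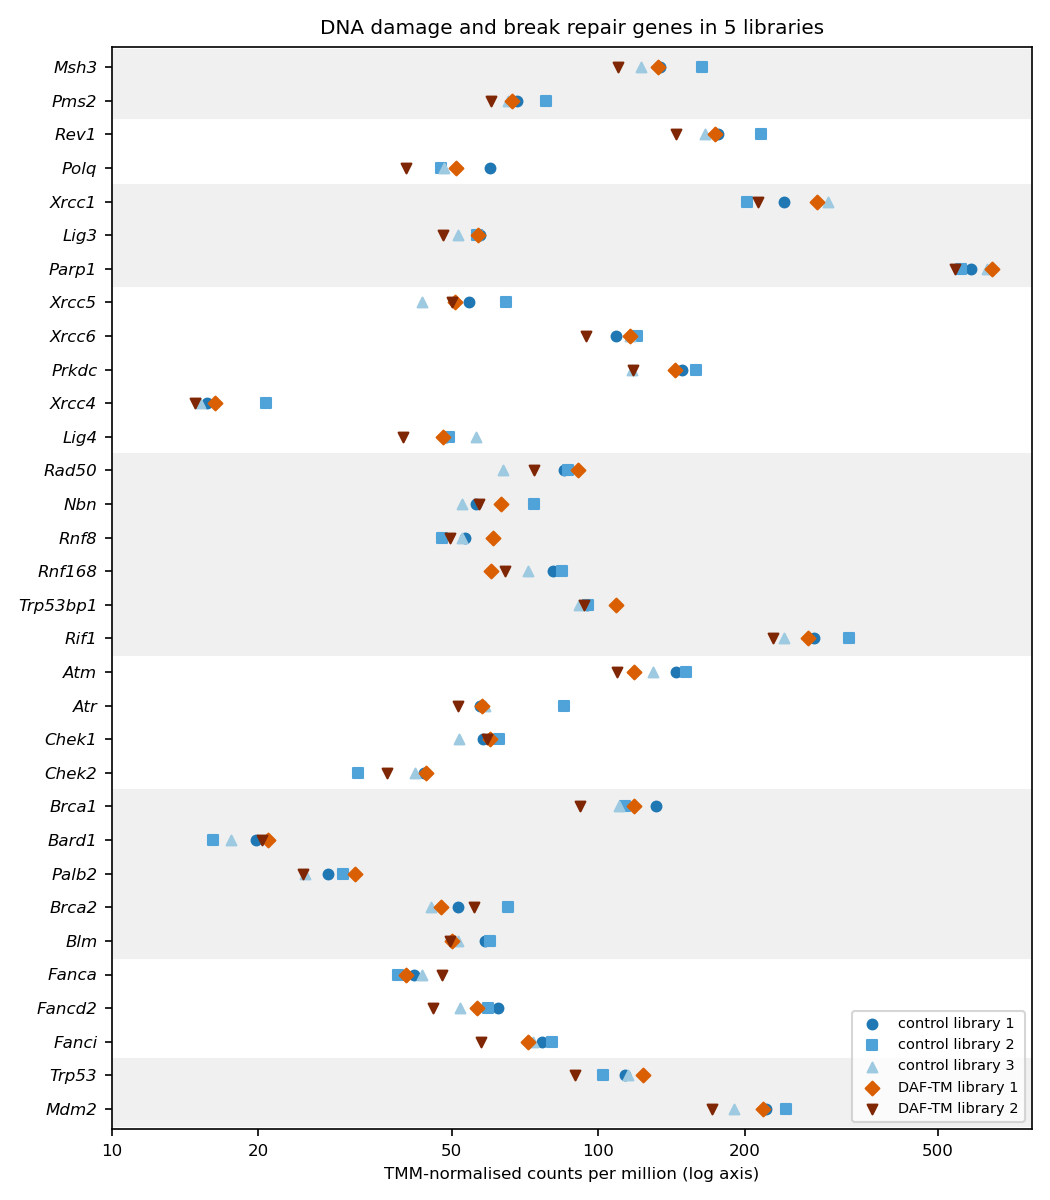
Level of each of the 32 genes (rows, shaded by role) in each of the 5 libraries, as TMM-normalised CPM on a log axis, blue symbols for control and orange or brown for DAF-TM libraries. The symbols of the groups are interleaved in most rows, and those of DAF-TM library 2 (brown triangles) are leftmost in 19 of 32 rows.

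Levels are compared between genes only per kilobase of exon, as the genes differ in length. Exon length here merges all annotated exons of a gene, so it can exceed the length of any single transcript. Its median was 6.73 kb for the 32 genes (from 2.53 to 23.6, the longest being Atr), against 4.74 kb for genes at 15 CPM or more. In control cells Parp1, which binds nicked DNA and builds poly(ADP-ribose) there, stood first at 112 ± 7.18 CPM per kilobase (SD, n = 3). Mdm2 followed at 43.0 ± 5.23, then Xrcc1 at 42.3 ± 8.14, Rev1 at 30.2 ± 4.25, Trp53 at 27.3 ± 1.73, Rif1 at 26.9 ± 4.16 and Xrcc6 at 25.7 ± 1.34. The lowest were Brca2 at 3.96 ± 0.748, Palb2 at 3.76 ± 0.337, Bard1 at 3.15 ± 0.327 and Atr at 2.83 ± 0.663. The range from Parp1 to Atr was 39.5-fold. The place of Atr, and so this range, rests on its merged exon length of 23.6 kb, and by CPM alone Atr ranked 17 of 32. Of the 31 pairs of neighbours in this order, only Parp1 and Mdm2, and Pms2 and Lig3, had control values that did not overlap. The remaining order is therefore not resolved between adjacent genes.

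Reference promoters of the genes were searched for short motifs near their start sites. RefSeq sequences (assembly GRCm38.p6, 250 bases before to 50 after the start) were matched for 27 of the 32 genes, Prkdc, Rad50, Nbn, Rif1 and Fancd2 being the others. An E2F motif, TTTCCCGC or GCGGGAAA on the other strand, lay in 4 of the 27 (14.8%: Xrcc6, Chek2, Bard1 and Brca2), in 1.24% of promoters of all genes and in 2.77% of those of genes at 15 CPM or more. E2F factors are the transcription factors released at entry into S phase. The stretches outside annotated exons are printed for 3 of these genes, because this motif had the highest ratio of its share in the list to its share in other expressed genes, and for Atm, Rnf168 and Parp1, because they are the genes of lowest p and of highest level. Capitals mark the E2F motif in Bard1, Brca2 and Chek2, a CCAAT box (CCAAT, or ATTGG on the other strand) in Atm, an ETS core (CGGAAG or CTTCCG) in Rnf168 and GC boxes (GGGCGG or CCGCCC) in Parp1. Each runs 5′ to 3′ on the strand of its gene. They come from chr1:71103147-71103222 (minus strand, Bard1), chr5:150522421-150522620 (plus, Brca2), chr5:110839779-110839978 (plus, Chek2), chr9:53536741-53536921 (minus, Atm), chr16:32277259-32277458 (plus, Rnf168) and chr1:180568691-180568890 (plus, Parp1).
Bard1: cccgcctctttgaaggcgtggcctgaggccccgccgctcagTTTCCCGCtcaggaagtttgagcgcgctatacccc
Brca2: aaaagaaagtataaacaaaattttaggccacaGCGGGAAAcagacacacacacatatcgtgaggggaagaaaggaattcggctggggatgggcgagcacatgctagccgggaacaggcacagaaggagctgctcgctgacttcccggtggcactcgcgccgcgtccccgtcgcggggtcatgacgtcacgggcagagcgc
Chek2: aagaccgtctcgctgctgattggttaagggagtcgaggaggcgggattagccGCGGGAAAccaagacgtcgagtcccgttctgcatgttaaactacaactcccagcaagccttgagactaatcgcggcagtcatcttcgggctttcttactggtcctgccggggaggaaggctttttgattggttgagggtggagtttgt
Atm: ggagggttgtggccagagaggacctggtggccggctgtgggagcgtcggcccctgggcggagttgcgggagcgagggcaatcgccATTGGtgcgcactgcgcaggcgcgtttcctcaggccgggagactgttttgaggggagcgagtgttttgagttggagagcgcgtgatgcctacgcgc
Rnf168: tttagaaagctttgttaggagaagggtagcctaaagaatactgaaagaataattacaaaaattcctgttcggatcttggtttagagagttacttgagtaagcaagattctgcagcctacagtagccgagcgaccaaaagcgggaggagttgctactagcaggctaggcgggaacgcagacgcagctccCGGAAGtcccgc
Parp1: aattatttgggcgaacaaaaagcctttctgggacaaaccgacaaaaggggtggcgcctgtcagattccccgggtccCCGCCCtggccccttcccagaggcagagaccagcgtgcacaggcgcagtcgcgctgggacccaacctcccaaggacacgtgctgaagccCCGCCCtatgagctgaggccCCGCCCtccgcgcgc

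Shares of the other motifs are given against genes at 15 CPM or more and then against all genes. A CCAAT box lay in 13 of 27 promoters (48.1%, against 44.0% and 41.1%), a GC box in 19 (70.4%, against 71.6% and 38.2%) and an ETS core in 14 (51.9%, against 42.1% and 18.8%). The CHR motif TTTGAA (or TTCAAA), found in promoters of genes of G2 and mitosis, lay in 3 (11.1%, against 14.3% and 20.2%), and TATAAA (or TTTATA) in 3 (11.1%, against 7.59% and 15.7%). Both strands were searched, and matches of different motifs may share letters. A match is a description of these letters and not of binding.

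Mismatch repair and the polymerases that copy damaged DNA come first among the roles. Msh3, a subunit of the complex that binds small insertion loops, stood at 134, 164 and 122 normalised CPM in control libraries 1 to 3 and at 133 and 110 in DAF-TM libraries 1 and 2. Pms2, a mismatch repair endonuclease, stood at 68.1, 78.2 and 65.3 in the controls and at 66.4 and 60.3 in DAF-TM cells. For both genes DAF-TM library 1 lay within the controls and DAF-TM library 2 below them, with log2 fold changes of -0.21 (SE 0.17) and -0.16 (SE 0.17). Rev1, a translesion polymerase that inserts cytosines opposite abasic sites and gives the C-to-G changes of hypermutation, stood at 176, 216 and 166 in the controls and at 174 and 144. Polq, the polymerase of theta-mediated end joining, stood at 60.1, 47.6 and 48.2 and at 51.1 and 40.3. Their log2 fold changes were -0.23 (SE 0.17) and -0.18 (SE 0.17), again with only DAF-TM library 2 outside the control range.

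Single-strand break repair showed the fold changes closest to 0. Parp1 stood at 584, 557 and 632 CPM in the controls and at 646 and 543 in DAF-TM cells. Its means of 591 ± 38.0 (SD, n = 3) and 595 ± 72.9 (SD, n = 2) gave a log2 fold change of 0.01 (SE 0.17). With up to 7164 counts in a library, Parp1 was the most deeply counted of the 32, and its 95% interval still ran from -0.32 to 0.33 on the log2 scale. Xrcc1, the scaffold that gathers the repair enzymes at a nick, stood at 241, 202 and 297 in the controls and at 282 and 213, and its partner ligase Lig3 at 57.1, 56.4 and 51.4 and at 56.7 and 48.0. Their log2 fold changes were 0.01 and -0.07.

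The 5 genes of non-homologous end joining had negative values and no call. Negative values were also found for 5802 of the 8132 genes at 15 CPM or more. The further end joining genes listed below had 3 positive and 2 negative values. The signs of Xrcc5, Xrcc6, Prkdc and Xrcc4 turned under some alternatives. Xrcc5 and Xrcc6 encode the subunits of Ku, the ring that first takes hold of a broken end. Xrcc5 stood at 54.1, 64.5 and 43.4 CPM in the controls and at 50.8 and 50.2 in DAF-TM cells, and Xrcc6 at 109, 120 and 116 and at 116 and 94.4. Prkdc, the kinase that Ku recruits, stood at 149, 159 and 117 and at 144 and 118, within the range of the controls. Xrcc4, the partner of DNA ligase IV, was the least counted of the 32 (111 to 244 counts), at 15.7, 20.7 and 15.1 and at 16.3 and 14.8 CPM. Lig4 itself stood at 48.7, 49.3 and 56.1 in the controls and at 48.1 and 39.7 in DAF-TM cells, DAF-TM library 1 lying just below the lowest control. Its log2 fold change was -0.23 (SE 0.17, adjusted p = 0.945, edgeR), and those of the other 4 genes lay between -0.15 and -0.10.

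Break sensing and chromatin signalling held both the lowest fold change of the list and several values above 0. Rnf168, on chr16:32277459-32301434, is the ubiquitin ligase that extends the mark begun by RNF8 on chromatin beside a break, to which 53BP1 then binds. Its counts (763, 992 and 526 in control, 669 and 762 in DAF-TM libraries) gave 80.8, 84.2 and 71.8 normalised CPM against 60.3 and 64.4. Both DAF-TM libraries lay below all controls, and here DAF-TM library 1 was the lower one. The means were 78.9 ± 6.45 (SD, n = 3) and 62.4 ± 2.91 (SD, n = 2), a log2 fold change of -0.34 (SE 0.17, edgeR unadjusted p = 0.0441, adjusted p = 0.858), with a 95% interval from -37.2% to -0.619%.

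The partners of Rnf168 showed values of either sign. Rnf8 stood at 53.2, 47.7 and 52.4 CPM in the controls and at 60.9 and 49.5 in DAF-TM cells, and Trp53bp1, the gene of 53BP1, which shields ends from resection, at 94.8, 95.1 and 91.4 and at 109 and 93.4. Both had a log2 fold change of 0.11 with overlapping groups. Rif1, an effector of 53BP1, stood at 278, 328 and 241 and at 271 and 229, a log2 fold change of -0.18. Rad50 and Nbn encode subunits of the MRN complex, which tethers ends and activates ATM. Rad50 stood at 85.1, 86.6 and 63.7 and at 91.0 and 73.9 CPM, and Nbn at 56.1, 73.8 and 52.4 and at 63.1 and 57.0, with log2 fold changes of 0.07 and -0.02 and DAF-TM values inside or next to the control range.

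Among the checkpoint kinases the upstream pair had negative values and the downstream pair did not. Atm, on chr9:53439149-53536740, the kinase activated by breaks, stood at 145, 151 and 130 CPM in the controls and at 118 and 109 in DAF-TM cells. The groups did not overlap, and the log2 fold change was -0.32 (SE 0.17, edgeR unadjusted p = 0.0553, adjusted p = 0.882). Atr, the kinase activated at stalled forks, stood at 57.2, 84.9 and 58.4 in the controls and at 57.7 and 51.6. Its log2 fold change of -0.29 (SE 0.17, adjusted p = 0.920, edgeR) was -0.08 without control library 2, and the other two controls were level with DAF-TM library 1. Chek1, the target of ATR, stood at 57.9, 62.7 and 51.8 and at 60.0 and 58.9, and Chek2, the target of ATM, at 43.7, 32.1 and 42.0 and at 44.2 and 36.8. Both had a log2 fold change of 0.05 and DAF-TM values within or beside the controls.

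Homologous recombination genes went in both directions by little. Brca1, which promotes the resection of broken ends, stood at 132, 113 and 110 CPM in the controls and at 119 and 91.8 in DAF-TM cells, a log2 fold change of -0.17. Bard1, on chr1:71027498-71103146, encodes the partner without which BRCA1 is unstable, and stood at 19.8, 16.1 and 17.6 and at 20.9 and 20.4. It was the one gene of the list higher in both DAF-TM libraries than in all controls, by 0.21 on the log2 scale (SE 0.21, adjusted p = 0.949, edgeR), with 129 to 241 counts per library. Palb2 stood at 27.9, 29.9 and 25.0 and at 31.7 and 24.7, and Brca2, which loads the recombinase onto single-stranded DNA, at 51.5, 65.2 and 45.3 and at 47.5 and 55.6, both with overlapping groups. Blm, the helicase that dissolves recombination intermediates, stood at 58.5, 60.0 and 51.6 and at 50.1 and 49.6, without overlap, with a log2 fold change of -0.19 (SE 0.17, adjusted p = 0.949, edgeR).

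The Fanconi anaemia genes and p53 close the list. Fanca, a subunit of the ubiquitin ligase core complex, stood at 41.8, 38.7 and 43.4 CPM in the controls and at 40.2 and 47.8 in DAF-TM cells, with a log2 fold change of 0.09. It was the only one of the 32 with its highest value in DAF-TM library 2. Fancd2 and Fanci encode the clamp that this complex modifies. Fancd2 stood at 62.3, 59.4 and 52.1 and at 56.5 and 45.8, with overlap, and Fanci at 76.8, 80.5 and 73.5 and at 71.6 and 57.3, without. Their log2 fold changes were -0.18 and -0.26 (SE 0.17 each, edgeR adjusted p = 0.949 and 0.945). Trp53 stood at 114, 102 and 115 and at 124 and 89.8, the DAF-TM libraries lying on either side of the controls, and Mdm2, the ligase that degrades p53 and is itself induced by it, at 221, 243 and 190 and at 219 and 172. Their log2 fold changes were -0.05 and -0.16.

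Ratios within a library do not depend on the factor that scales the library. They do keep a shift that differs by expression level, as seen in DAF-TM library 2, where the partners differ in level. Mean levels were 269 CPM for Rif1 and 96.7 for Trp53bp1, 131 for Atm and 39.8 for Chek2, and 19.0 for Bard1 and 113 for Brca1. The part of this shift in the ratios was not tested. The ratios were taken as CPM per kilobase for 12 pairs of partners chosen with the members' values known, and are given as descriptions. The ratio of Rnf168 to Rnf8 was 3.99, 4.63 and 3.59 in the controls and 2.60 and 3.42 in DAF-TM cells, and that of Rif1 to Trp53bp1 was 3.96, 4.66 and 3.56 and 3.35 and 3.30. The ratio of Atm to Chek2 was 0.961, 1.37 and 0.895 and 0.778 and 0.861. The ratio of Atr to Chek1 was 0.194, 0.266 and 0.221 in the controls and 0.189 and 0.172 in DAF-TM cells. In these pairs the DAF-TM values lay below the controls. The ratio of Bard1 to Brca1 was 0.227, 0.214 and 0.241 and 0.266 and 0.335, higher in DAF-TM cells. No share of such separations was computed for ratios of other gene pairs, so nothing is read from their number. The remaining 7 pairs overlapped: the subunits of Ku, Lig4 and Xrcc4, Lig3 and Xrcc1, Nbn and Rad50, Palb2 and Brca2, Fanci and Fancd2, and Mdm2 and Trp53.

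**Figure D4:**
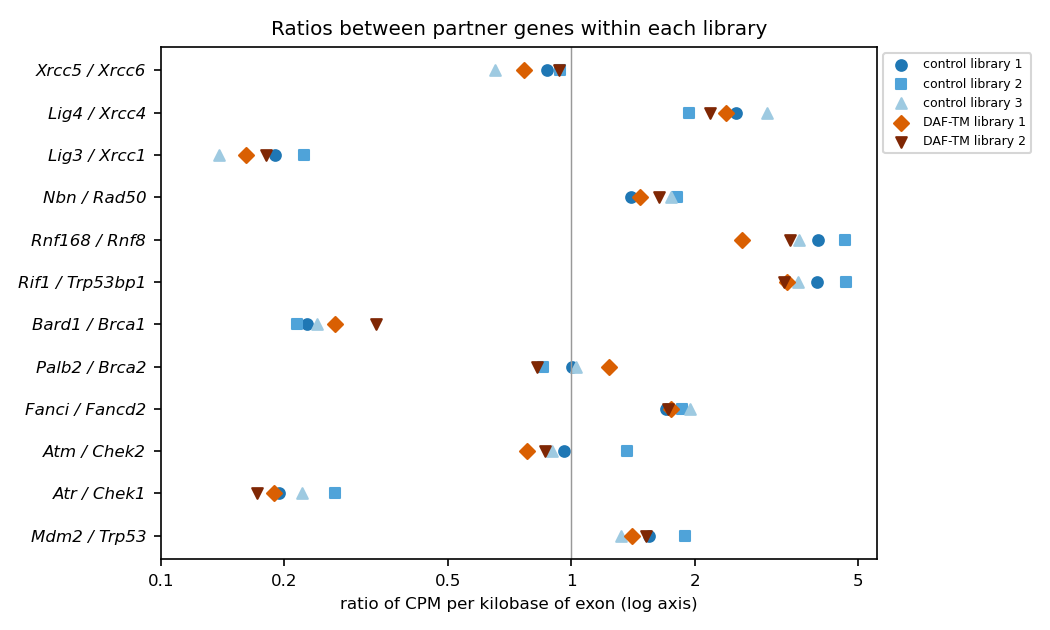
Ratio of CPM per kilobase of exon between 12 pairs of partner genes (rows) in each of the 5 libraries, on a log axis with a line at 1. The DAF-TM symbols lie left of all control symbols for Rnf168 over Rnf8, Rif1 over Trp53bp1, Atm over Chek2 and Atr over Chek1, right of them for Bard1 over Brca1, and overlap them or lie on both sides of them for the other 7 pairs.

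Many of the genes share a start region with a neighbour read in the other direction. In the GENCODE M21 annotation of the same build, 11 of the 32 (34.4%) had a protein-coding neighbour on the opposite strand whose start lay within 1000 bases upstream or overlapped by up to 300, where 10.3% of 16319 protein-coding genes tested and 16.0% of 7602 at 15 CPM or more did. Among the pairs were Pms2 with Aimp2, Xrcc1 with Pinlyp, Prkdc with Mcm4, Lig4 with Abhd13, Atm with Npat, Chek2 with Hscb, Brca1 with Nbr1, Palb2 with Dctn5, Fancd2 with Emc3 and Trp53 with Wrap53. None of these 11 neighbours passed the edgeR test at an adjusted p under 0.05, and 1, Npat, had an unadjusted p under it. Npat, a coactivator of histone genes whose start lies 307 bases from that of Atm, stood at 125, 152 and 127 CPM in the controls and at 107 and 102 in DAF-TM cells. Like Atm it was lower without overlap, with a log2 fold change of -0.37 (SE 0.17, edgeR unadjusted p = 0.0268, adjusted p = 0.795). In other pairs the values parted: Palb2 had 0.03 and Dctn5 -0.21, and Brca1 had -0.17 and Nbr1 0.04. Over the 11 neighbours the median log2 fold change was -0.20, with 7 negative values.

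Reads of some members cannot be assigned with certainty. The spans of 9 of the 32 overlap a protein-coding gene on the other strand (Msh3, Rev1, Lig3, Xrcc6, Xrcc4, Trp53bp1, Fanca, Fancd2 and Fanci), and whether counting used strand is not given in the sources used here.

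Further genes of these pathways were taken from lists of the same roles. Of 137 listed, 134 were tested, 0 rose and 0 fell at an adjusted p under 0.05 (edgeR), and at an unadjusted p under 0.05 there were 2 higher (Eda2r and Sesn1) and 1 lower (Ccng1). Under the alternatives 1 gene was called, Sesn1. It passed without control library 2 (log2 fold change 0.65, adjusted p = 0.0143, edgeR). It also passed with the replicate number as a block and the copied column as replicate 3 (0.66, adjusted p = 0.0107, edgeR). Over the 134 genes the median log2 fold change was -0.10, with 36 positive and 98 negative values. Of the 8132 genes at 15 CPM or more 2330 were positive and 5802 negative. Medians by pathway were -0.13 for mismatch repair (6 genes), -0.18 for translesion polymerases (8), -0.10 for single-strand break repair (14), 0.15 for end joining (5), -0.20 for break sensing (15), -0.08 for checkpoint genes (14), -0.12 for homologous recombination (30), -0.02 for Fanconi anaemia (14) and -0.05 for p53 targets and regulators (28).

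**Figure D5:**
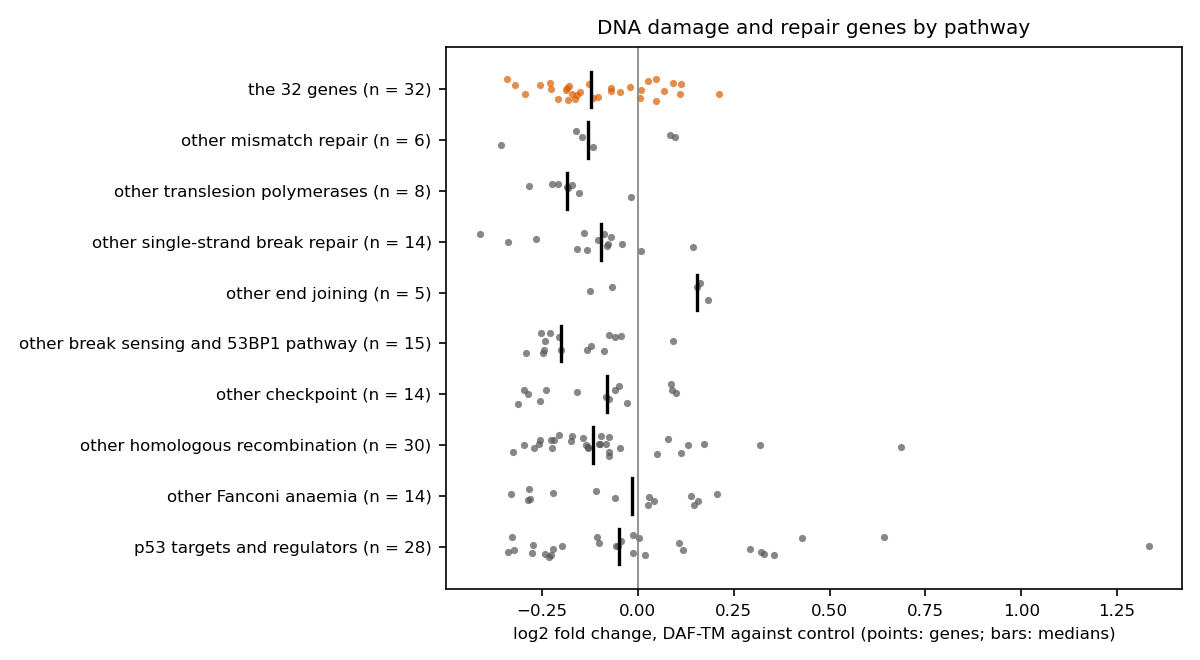
Log2 fold change (horizontal axis, DAF-TM against control) of the 32 genes (orange) and of 134 further genes of the same pathways (grey), 1 point per gene, with black bars at the medians. Medians lie between -0.20 and 0.15, and the point farthest right, at 1.33, is Eda2r.

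The lowest p-value of these 134 belonged to Eda2r, a death receptor of the ectodysplasin family and a p53 target. It stood at 1.48, 1.02 and 1.23 CPM in the controls and at 2.62 and 3.64 in DAF-TM cells, a log2 fold change of 1.33 (SE 0.49, edgeR unadjusted p = 0.00651, adjusted p = 0.507). Both DAF-TM libraries lay above all controls. In the class under 5 CPM, to which it belongs, the median difference was -0.02 in DAF-TM library 1 and 0.41 in DAF-TM library 2. Sesn1, a p53-induced regulator of mTORC1, stood at 35.2, 67.7 and 46.0 and at 61.6 and 65.7, with overlap (log2 fold change 0.36, unadjusted p = 0.0379, adjusted p = 0.833, edgeR). Cdkn1a, the cell cycle inhibitor p21 and the usual readout of p53 activity, stood at 4.74 ± 1.36 (SD, n = 3) and 6.01 ± 0.468 CPM (SD, n = 2), a log2 fold change of 0.33 (SE 0.35) with overlap. Of the 28 p53 targets and regulators 11 had positive and 17 negative values. Without overlap 4 were higher, Eda2r among them, and 3 lower, namely Bax, Ccng1 and Ei24. The rest of the higher ones are not named here. The shares of all genes tested were 11.3% higher and 9.02% lower, and those of genes at 15 CPM or more 3.68% and 17.2%. Ccng1, a p53-induced cyclin, stood at 241, 271 and 198 CPM in the controls and at 197 and 180 in DAF-TM cells (log2 fold change -0.33, SE 0.17, edgeR unadjusted p = 0.0498, adjusted p = 0.870). Bax, a p53-induced promoter of apoptosis, had a log2 fold change of -0.20 (SE 0.17) and Ei24 one of -0.27 (SE 0.17).

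Within each of the remaining lists the 2 genes of lowest p had adjusted p-values of 0.876 or more. They were Pms1 (-0.36) and Msh6 (-0.16) in mismatch repair, Rev3l (-0.29) and Polh (-0.22) among translesion polymerases, and Aptx (-0.34) and Apex1 (-0.41) in single-strand break repair, the values being log2 fold changes. In end joining they were Poll (0.15) and Nhej1 (0.18), in break sensing Fam175a (-0.29) and Brcc3 (-0.25), and in the checkpoint list Tipin (-0.31) and Topbp1 (-0.29). In homologous recombination they were Rmi2 (-0.32) and Rpa3 (-0.30), and in the Fanconi anaemia list Fancl (-0.33) and Fancm (-0.29).

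Proliferation and germinal centre genes are given beside the list because repair genes follow the cell cycle. Of 35 S phase genes 0 passed the edgeR test, with a median log2 fold change of -0.12, a median difference of -0.23 in DAF-TM library 2, and 34 of 35 below the control mean there. Of 22 mitosis genes 0 passed, with a median of -0.13. At an unadjusted p under 0.05 there were 0 of the S phase genes and 1 of the mitosis genes. Of 16 germinal centre B cell genes 0 passed, with a median of -0.18. At an unadjusted p under 0.05 3 were lower, among them Bcl6 (log2 fold change -0.37) and Mybl1 (-0.36), where the share of all genes tested was 5.74% in either direction. The median difference of the 16 from the control mean was -0.15 in DAF-TM library 1 (11 of 16 below) and -0.26 in DAF-TM library 2 (15 of 16 below). Lower without overlap were 8 of these 16, 6 of the 35 S phase genes and 3 of the 22 mitosis genes. The shares were 17.2% of genes at 15 CPM or more and 9.02% of all genes tested. The S phase genes had a median difference of -0.03 in DAF-TM library 1, with 19 of 35 below. In bulk RNA, fewer cells of a type and less RNA per cell cannot be told apart.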

How the data were processed

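RNA was reverse transcribed from 10 ng of total RNA with an oligo-dT kit (SMART-Seq v4) and sequenced as single-end reads of 100 nt, per the labels' protocols. The authors deposited raw counts per gene, with no normalization. bcl2fastq, HISAT2 and featureCounts were used, per the submitters' processing notes, and the build was mm10, per the file headers. The file header writes the cre allele as (+/fl), the labels as (+/-).

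Columns were mapped to samples by name, and the duplicated DAF-TM column entered once. Genes were tested with edgeR 4.0.16 (R 4.3.3): TMM factors, filterByExpr, glmQLFit with robust estimation, two-sided glmQLFTest, Benjamini-Hochberg adjustment, threshold 0.05. The biological coefficient of variation was 0.177. CPM are TMM-normalised; differences of single libraries used log2 with a pseudocount of 0.5. The procedure was tested on simulated counts. In 27 rows the symbol had become a date; their share was up to 0.266% of the counts and they stayed in the library sizes. Of 331 list entries 327 were found, 10 of them by an older symbol. Named were the 32 members, their divergent neighbours, and in each other pathway list the called genes and the 2 of lowest p; Cdkn1a, Ccng1, Bax, Ei24, Bcl6 and Mybl1 were singled out after their values were seen. The members and lists were chosen with earlier results of these data known. Alternatives were other size factors, other filters, DESeq2 1.42.0, limma-voom (limma 3.58.1), no robust estimation, a replicate block, each library left out, and, added after the data were seen, TMM factors from genes at 15 CPM or more. The values of some single genes are left out of the text.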

Additional observations from a re-analysis of the deposited data

How the results depend on the processing

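The count of called genes among the 32 was 0 under all 15 alternatives, and the smallest adjusted p of any of the 32 under any of them was 0.539 (Fanci without DAF-TM library 1). Over all genes the count of 77 became 39 with upper-quartile factors, 32 with DESeq2, 51 with limma-voom and 41 with TMM factors from genes at 15 CPM or more (an alternative chosen after seeing the data). It ran from 14 (without DAF-TM library 1) to 118 (without DAF-TM library 2) when single libraries were left out, with 43 without control library 1 and 44 without control library 3. The list's median ran from -0.23 to -0.0108 when single libraries were left out, and from -0.19 to -0.03 under the other alternatives. The median of all genes, 0.03, was 0.0013 with RLE factors, 0.10 with upper-quartile factors, 0.0418 without the low-count filter, 0.0001 with DESeq2 and 0.12 with TMM factors from genes at 15 CPM or more, and ran from -0.0195 to 0.0636 when single libraries were left out. A change of size factors moves the log2 values of the genes together by construction. Here the move was upward with upper-quartile and added TMM factors. It was downward with RLE factors and with DESeq2, which uses its own size factors. Otherwise the cause of these moves was not tested.

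Deviations from the group means correlated at -0.14 between the libraries of replicate number 1, and at -0.08 for number 2. With 2 DAF-TM libraries their deviations are mirror images (correlation -1). These values therefore cannot tell whether the replicate numbers pair the libraries. With the replicate number as a block the count over all genes was 61 with the copied column as replicate 2 and 105 as replicate 3, the median of all genes was 0.0472 and 0.0104, and the list's median -0.19 and -0.08. With the block the sign turned for Rad50 (-0.0659), Chek1 (-0.0198) and Palb2 (-0.0464) with the copy as replicate 2. With the copy as replicate 3 it turned for Xrcc1 (-0.12), Parp1 (-0.0366), Xrcc5 (0.0562), Xrcc4 (0.0137), Nbn (0.15), Chek2 (-0.0871) and Brca2 (0.0893).

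No fold change that turned sign had passed the test. It turned for Xrcc1 and Parp1 with RLE factors (-0.0164 and -0.0155) and DESeq2 (-0.0164 and -0.0154). It turned with upper-quartile factors for Nbn (0.0553), Brca2 (0.0169) and Trp53 (0.0144), and with TMM factors from genes at 15 CPM or more for Lig3 (0.0199), Nbn (0.0779), Brca2 (0.0391) and Trp53 (0.0351). When single libraries were left out, the log2 fold change passed through 0 for 19 genes. It ran from -0.38 to 0.0015 for Brca1, -0.19 to 0.09 for Brca2, -0.0033 to 0.11 for Chek1, -0.10 to 0.17 for Chek2, -0.0375 to 0.20 for Fanca, -0.20 to 0.0437 for Lig3, -0.35 to 0.001 for Mdm2, -0.10 to 0.14 for Nbn, -0.17 to 0.20 for Palb2 and -0.13 to 0.13 for Parp1. It ran from -0.27 to 0.0177 for Prkdc, -0.10 to 0.21 for Rad50, -0.0524 to 0.25 for Rnf8, -0.30 to 0.17 for Trp53, -0.0135 to 0.22 for Trp53bp1, -0.22 to 0.19 for Xrcc1, -0.23 to 0.0107 for Xrcc4, -0.22 to 0.045 for Xrcc5 and -0.29 to 0.0138 for Xrcc6. The signs of the other 13 held under all 15 alternatives, but their sizes did not. Without DAF-TM library 1 and without DAF-TM library 2 the values were -0.43 and -0.105 for Fanci, -0.375 and -0.0948 for Lig4, -0.374 and -0.0227 for Polq, -0.358 and -0.0795 for Msh3, -0.375 and -0.101 for Rev1 and -0.349 and -0.0397 for Fancd2. With single libraries left out, Atr ran from -0.39 to -0.0833 (without control library 2), Rif1 from -0.31 to -0.0612 and Pms2 from -0.24 to -0.0783 (both without control library 2), Bard1 from 0.14 to 0.30, Rnf168 from -0.39 to -0.29, Atm from -0.39 to -0.26 and Blm from -0.23 to -0.15. Of the other pathway genes 1, Sesn1, passed without control library 2 and with the block and the copy as replicate 3 (adjusted p = 0.0143 and 0.0107). A lone library left in the DAF-TM group is assumed to vary like the controls.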
